A study of Drosophila melanogaster with 3 samples.

Results

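E(z)-GFP summits at divergent core promoters were examined in Drosophila melanogaster prepupae. A divergent core promoter was taken as a protein-coding transcription start site (TSS) that has, upstream and on the opposite strand, the TSS of another protein-coding gene within 1000 bp. The summits came from the authors' reproducibility-thresholded peak list on dm6, called the optimal list here, and a summit was a member when it lay within 250 bp of such a TSS. No measured level entered this choice. The members were 400 summits, or 7.11% of the optimal list, and they made up 29.9% of the 1338 summits that lay within 250 bp of any protein-coding TSS. The other 938 of these lay at TSSs with no head-to-head partner, called single here, while 955 summits were more than 250 and up to 1000 bp from a TSS and 3330 were farther away; these 4 counts make up the whole list.

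The study mapped E(z) on chromatin by immunoprecipitation followed by sequencing, and its 3 biological replicates form 1 group. The flies came from a transgenic line that stably expresses E(z) with GFP at its C terminus, and the fusion was recovered with an anti-GFP antibody, although the antibody field of the labels reads E(z). Whole prepupae of pooled males and females were used, their age is given as unknown, and all cell types of the animal are mixed in each sample. There was no untreated or mutant group, so every comparison was between classes of promoters within the same 3 samples. The labels say no more of the replicates than that they are biological, so a p-value measures only the spread between these samples.

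E(z) is the enzymatic subunit of Polycomb repressive complex 2 and methylates histones at silenced developmental genes. Divergent core promoters drive a pair of genes outward from a shared stretch of DNA, and in the compact fly genome such pairs are common among broadly expressed housekeeping genes. Core promoters of this kind often carry words bound by DREF, M1BP or the boundary protein BEAF-32, whereas regulated promoters and Polycomb response elements often carry GAGA words, bound by the GAGA factor.

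The intervals between the start sites of strong members show what the summits lay on. They are the 8 eligible members ranked highest by the authors' signal value, followed by the 2 strongest of the remaining ones that hold no DRE, motif 1 or GAGA word. Eligible members lay inside a highly ranked peak of all 3 replicates and had an interval of 40 to 300 bp without an annotated exon, and 74 intervals qualified. Each is printed on the plus strand, 5′ to 3′, from the RefSeq copy of the dm6 assembly, with the gene on the minus strand named before the gene on the plus strand and both start sites left out. Capitals mark the bases within 40 bp of the summit. The summits of the Chro-Ssl1 and CG8372-CG8360 members lay outside the interval, beyond 40 bp, and these lines hold no capitals.
Chro-Ssl1, chr3L:22878985-22879088: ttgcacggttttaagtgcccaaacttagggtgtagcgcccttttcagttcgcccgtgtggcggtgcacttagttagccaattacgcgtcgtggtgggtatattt
Art3-mRpS10, chr3R:15229409-15229664: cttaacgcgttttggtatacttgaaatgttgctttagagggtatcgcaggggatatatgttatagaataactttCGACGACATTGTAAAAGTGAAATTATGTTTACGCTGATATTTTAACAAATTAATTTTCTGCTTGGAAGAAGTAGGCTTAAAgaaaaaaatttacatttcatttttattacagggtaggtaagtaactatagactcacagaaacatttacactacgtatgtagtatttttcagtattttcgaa
CG7601-CIA30, chr3R:29736746-29736964: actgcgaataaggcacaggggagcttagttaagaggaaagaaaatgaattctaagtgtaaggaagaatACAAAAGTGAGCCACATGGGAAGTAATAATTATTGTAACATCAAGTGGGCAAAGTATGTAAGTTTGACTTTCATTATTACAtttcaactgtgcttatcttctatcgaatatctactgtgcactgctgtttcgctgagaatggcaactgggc
CG8372-CG8360, chr2L:8212903-8212958: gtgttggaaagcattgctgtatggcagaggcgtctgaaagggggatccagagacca
Tcs5-CHMP2B, chr3L:5139396-5139618: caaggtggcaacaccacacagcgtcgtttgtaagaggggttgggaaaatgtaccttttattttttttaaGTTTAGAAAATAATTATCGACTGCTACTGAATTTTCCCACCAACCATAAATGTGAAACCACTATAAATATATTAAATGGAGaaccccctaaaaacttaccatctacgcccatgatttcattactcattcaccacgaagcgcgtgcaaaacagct
CG13390-CG17294, chr2L:8376798-8377034: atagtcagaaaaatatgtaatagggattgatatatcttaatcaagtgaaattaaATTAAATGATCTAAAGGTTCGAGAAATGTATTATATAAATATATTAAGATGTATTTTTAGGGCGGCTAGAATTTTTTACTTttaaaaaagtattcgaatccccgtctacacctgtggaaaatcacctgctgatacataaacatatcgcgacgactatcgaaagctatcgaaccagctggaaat
CG3437-CG3552, chr3L:9457670-9457911: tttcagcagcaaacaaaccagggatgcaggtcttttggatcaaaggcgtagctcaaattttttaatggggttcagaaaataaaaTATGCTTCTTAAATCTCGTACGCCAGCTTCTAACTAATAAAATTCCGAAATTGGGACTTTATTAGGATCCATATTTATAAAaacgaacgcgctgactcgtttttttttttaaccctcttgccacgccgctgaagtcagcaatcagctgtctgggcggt
Mnat9-CG1792, chr3R:31616161-31616302: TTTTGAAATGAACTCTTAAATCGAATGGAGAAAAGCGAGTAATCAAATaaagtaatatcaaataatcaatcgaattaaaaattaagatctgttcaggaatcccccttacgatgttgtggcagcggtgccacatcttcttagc
Lon-PIG-F, chr3L:19612200-19612454: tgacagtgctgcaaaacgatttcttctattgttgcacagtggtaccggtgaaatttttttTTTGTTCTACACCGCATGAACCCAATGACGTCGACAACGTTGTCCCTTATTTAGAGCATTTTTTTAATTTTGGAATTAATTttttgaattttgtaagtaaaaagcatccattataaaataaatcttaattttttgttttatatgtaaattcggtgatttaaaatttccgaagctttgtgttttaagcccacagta
Mkk4-SLIRP2, chr3R:8650797-8651083: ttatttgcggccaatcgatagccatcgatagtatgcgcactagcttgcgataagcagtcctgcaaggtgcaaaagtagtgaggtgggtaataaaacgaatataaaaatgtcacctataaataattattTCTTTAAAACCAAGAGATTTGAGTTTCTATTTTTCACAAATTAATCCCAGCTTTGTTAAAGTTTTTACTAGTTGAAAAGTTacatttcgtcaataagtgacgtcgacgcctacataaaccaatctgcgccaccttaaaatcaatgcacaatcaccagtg

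The capitals of these lines are rich in A and T. The 81 bases around the summit held 23.5% G and C at CG13390-CG17294, 25.9% at Mkk4-SLIRP2, 29.6% at both Art3-mRpS10 and Tcs5-CHMP2B and 34.6% at Lon-PIG-F. At Chro-Ssl1, where the summit was 100 bp inside Chro, the interval itself held 51% G and C and the 81 bases around the summit held 35.8%. None of the 8 strongest intervals held DRE, motif 1 or GAGAG. Of the 74 intervals, 9 held DRE, 3 held motif 1, 11 held GAGAG and 53 held none of these.

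Further intervals show where the core promoter words lie when they are present. They were added after the data were seen, as the 2 strongest eligible members that hold DRE and the 2 strongest that hold motif 1. Here the capitals mark the word, TATCGATA for DRE or GGTCACAC for motif 1, on either strand.
Atat-Shc, chr3L:9426759-9427009: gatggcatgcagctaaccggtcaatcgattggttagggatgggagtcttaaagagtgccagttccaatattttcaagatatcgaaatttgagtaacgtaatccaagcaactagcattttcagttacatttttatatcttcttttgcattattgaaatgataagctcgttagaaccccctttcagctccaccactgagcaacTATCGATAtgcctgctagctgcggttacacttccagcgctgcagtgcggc
fws-Lamtor3, chr2L:17481030-17481230: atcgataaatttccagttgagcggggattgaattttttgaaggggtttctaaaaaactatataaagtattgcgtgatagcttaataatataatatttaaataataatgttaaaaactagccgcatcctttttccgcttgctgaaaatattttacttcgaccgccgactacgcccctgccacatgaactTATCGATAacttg
Tsf2-CG34242, chr3L:12533725-12533995: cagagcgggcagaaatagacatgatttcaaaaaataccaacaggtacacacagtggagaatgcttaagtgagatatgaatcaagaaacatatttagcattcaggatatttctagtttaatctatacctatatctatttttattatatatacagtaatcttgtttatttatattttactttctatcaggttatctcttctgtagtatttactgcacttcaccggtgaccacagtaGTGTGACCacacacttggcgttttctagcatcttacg
CG10214-CG10375, chr3R:23767489-23767711: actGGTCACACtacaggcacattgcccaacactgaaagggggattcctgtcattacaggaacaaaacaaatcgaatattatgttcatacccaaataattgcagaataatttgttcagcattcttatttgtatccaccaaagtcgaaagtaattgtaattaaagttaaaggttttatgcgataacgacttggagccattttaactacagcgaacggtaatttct

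In all 4 lines the capitals stand nearer to an end of the interval, and so to a start site, than to its middle. The summits of Atat-Shc, rank 99, and fws-Lamtor3, rank 117, were 126 bp and 97 bp upstream of the nearer TSS. Those of Tsf2-CG34242, rank 1012, and CG10214-CG10375, rank 1941, were 110 bp and 95 bp upstream of it.

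The 3 replicates differed in how many core promoters their strong lists held. Each replicate was represented by its strong list, which holds its highest-ranked peaks up to the length of the optimal list, with peaks ranked by the authors' signal value. These lists held 460, 457 and 535 divergent summits in replicates 1, 2 and 3, and 780, 864 and 1325 single ones. Replicate 3 stood apart with the most of each class, and values without it are given where they change direction or move by over 1.5 times. The depth of sequencing is unknown from peak lists, and its part in these differences was not tested. All intervals given here are exact binomial intervals at 95% and cover counting error only.

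Divergent start sites carried a summit more often than single start sites did, and the size of this difference varied between replicates. In replicates 1, 2 and 3 a summit lay within 250 bp of 13.8%, 13.4% and 14.3% of the 6184 divergent TSSs, against 6.45%, 7.11% and 10.8% of the 13423 single TSSs. The groups did not overlap, and replicate 3 stood apart through its higher share of single TSSs. The means were 13.8% ± 0.461 for divergent and 8.12% ± 2.35 for single TSSs (SD, n = 3 each). The difference was 5.71 percentage points, positive in 3 of 3 replicates (exact two-sided sign-flip permutation test, p = 0.25, adjusted p = 0.333 over 12 comparisons). Without replicate 3 it was 6.82 percentage points. It was 1.99 percentage points with summits within 100 bp of the TSS, and 1.80 with the 1000 strongest peaks of each replicate. A summit near both start sites of a pair counts at each of them, so these shares count start sites and not summits: the 400 members and 938 single summits of the optimal list gave 721 divergent and 1010 single TSSs with a summit. With 3 replicates this test cannot give a p below 0.25, so no comparison of this kind could pass the 0.05 threshold. In the optimal list these were 11.7% of divergent and 7.52% of single TSSs, beside 8.83% of all 19607 protein-coding TSSs. The direction held with the relaxed lists, all 30000 peaks deposited for each replicate, at 26.6% ± 5.73 for divergent against 23.3% ± 3.54 for single TSSs (SD, n = 3 each), with differences of 2.01, 1.90 and 5.74 percentage points in replicates 1, 2 and 3. It turned in the pooled relaxed list, the authors' 30000 peaks for the pooled sample, where 20.7% of divergent and 22.3% of single TSSs had a summit.

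By gene pair, 403 of 2640 divergent pairs (15.3%) had an optimal summit within 250 bp of a start site. The nearest pair of a member was 1 of 377 gene pairs, which comprise 752 genes, and 23 of these pairs held 2 members. A further 325 pairs (12.3%) had a summit only in the pooled relaxed list, and 1912 pairs (72.4%) had none in it. So most divergent pairs carried no summit even in the relaxed list.

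The share of pairs with a summit ranged from 15.6% to 20.4% over 4 classes of spacing, and wider pairs have a larger window. In replicates 1, 2 and 3 a summit was present at 21.9%, 18.6% and 20.6% of the 689 pairs with start sites over 150 and up to 300 bp apart. The mean was 20.4% ± 1.68 in this class, against 15.6% ± 1.36 at 635 pairs up to 150 bp apart, 19.7% ± 2.06 at 856 pairs up to 600 bp apart and 17.5% ± 2.32 at 460 pairs up to 1000 bp apart (SD, n = 3 each). The window that could receive a summit averaged 739 bp for pairs 150 to 300 bp apart, against 580, 916 and 1002 bp for the other classes. Pairs 150 to 300 bp apart exceeded all others together by 5.21, 1.61 and 0.722 percentage points in replicates 1, 2 and 3 (mean 2.51 ± 2.37, SD, n = 3, exact sign-flip permutation test, p = 0.25). This contrast was chosen after the data were seen. Without replicate 1 the mean was 1.17 percentage points.

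**Figure D1:**
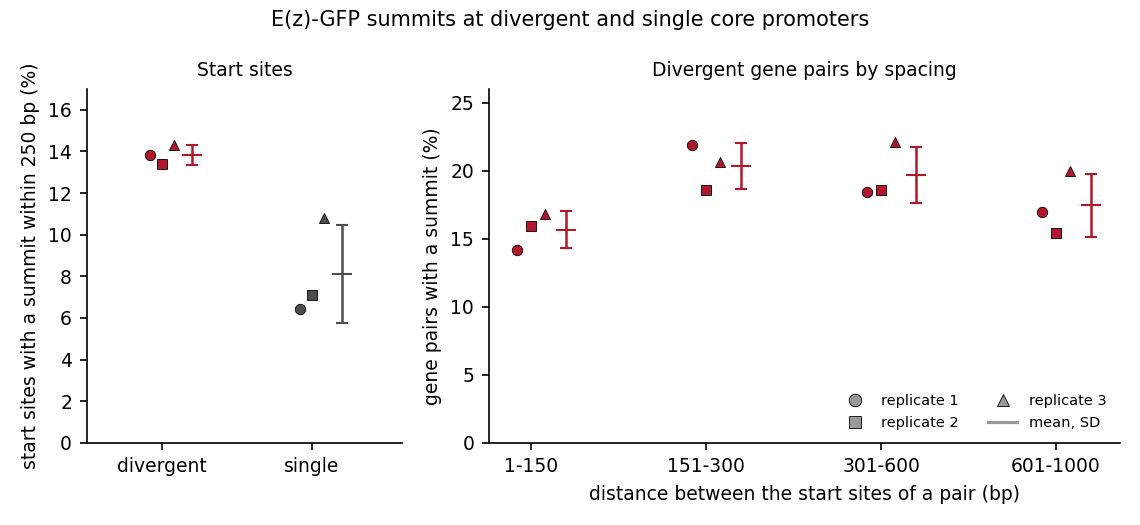
Share of start sites (left, %) and of divergent gene pairs by the distance between their start sites (right, %) with a summit within 250 bp in the strong list of each replicate. Symbols are replicates and bars are means with SD (n = 3): divergent start sites averaged 13.8% and single ones 8.12%, and pairs 150 to 300 bp apart averaged 20.4%.

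Members ranked among the strongest peaks of the list more often than their overall share. They were 6 of the 25 strongest optimal summits, 23 of the 100 strongest (23.0%, 15.2 to 32.5) and 106 of the 1000 strongest (10.6%, 8.76 to 12.7), beside 7.11% of all. Their median rank was 2426.5, against 2701 for single summits, 2488 for summits 250 to 1000 bp from a TSS and 2978.5 for those farther away. Of 400 members, 100 had rank up to 904, beside 195 of 938 single summits and 205 of 955 summits 250 to 1000 bp away. Of summits farther away it was 404 of 3330. The other classes up to 1000 bp from a TSS thus also exceeded their overall share there, and the excess was not particular to members. In the replicate lists the median percentile rank, where a low value is a strong peak, was 39.2, 42.3 and 50.3 for divergent and 48.2, 47.6 and 45.3 for single summits in replicates 1, 2 and 3. Divergent summits thus ranked higher in replicates 1 and 2 and lower in replicate 3. The difference was -3.11 ± 7.28 percentile points (SD, n = 3, exact sign-flip permutation test, p = 0.5, adjusted p = 0.6). Without replicate 1, 2 or 3 it was -0.133, -2.02 and -7.17.

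Members were found across replicates about as often as other summits. A summit was found in a replicate when it lay inside a peak of that replicate's strong list. All 3 replicates held 231 members (57.75%, 52.7 to 62.6), against 54.5% of single summits and 55.9% of all optimal summits, so the members' share lay near the background. Replicates 1, 2 and 3 held 81.0%, 82.75% and 79.75% of members, against 71.5%, 80.7% and 86.6% of single summits. For 53 members only 1 replicate held the peak, and for 2 members none did. In the full relaxed lists 346 members (86.5%) were inside a peak of all 3 replicates, against 91.8% of single summits. Since the same replicates gave rise to the optimal list, these shares describe it and test nothing.

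The strongest member was the highest-ranked peak of the optimal list and of each replicate, 18 bp upstream of Ugalt, which encodes a UDP-galactose transporter. Its partner eIF2Bbeta, a subunit of a translation initiation factor, starts 719 bp away. The member at PNPase, a mitochondrial RNA exonuclease gene paired with the G protein-coupled receptor kinase gene Gprk2, ranked 5, 4 and 4 in replicates 1, 2 and 3. Its summit was 69 bp downstream of the PNPase TSS, in the 5′ UTR. The member between CenG1A, an Arf GTPase-activating protein gene, and mRpS23, of the mitochondrial ribosome, ranked 6, 6 and 8. These 3 members had nearly the same rank in every replicate.

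The Chro-Ssl1 member ranked 11, 9 and 17 in replicates 1, 2 and 3. Chro encodes Chromator, a chromosomal protein of polytene interbands and domain boundaries, and Ssl1 encodes a subunit of the general transcription factor TFIIH. Further pairs joined a mitochondrial ribosomal protein gene to another gene, as at mRpL41-CG8079 with ranks 8, 19 and 37, at Art3-mRpS10 with ranks 12, 27 and 36 and at mRpL23-CG9004 with ranks 50, 75 and 161. In each of these 3 pairs the peak ranked highest in replicate 1 and lowest in replicate 3. Art3 encodes an arginine methyltransferase. The CG7601-CIA30 member ranked 35, 24 and 35, and CIA30 encodes an assembly factor of respiratory complex I.

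The remaining named members were the next strongest that all 3 replicates held, down to rank 117. They lay at CG9147-Fbw5, CG8360-CG8372, CG8320-Pex11ab, CG5611-Mtl, Tcs5-CHMP2B, CG13390-CG17294, CG3552-CG3437, Pal1-Pdrg1, CG5098-CG5757, CG11309-CG7632, tank-CG12194 and Mnat9-CG1792. The last ones were CG18428-eIF4EHP, Lon-PIG-F, Atat-Shc, SLIRP2-Mkk4 and Lamtor3-fws. Pex11ab is a peroxisomal gene, CHMP2B encodes an ESCRT-III subunit, Lon a mitochondrial protease, PIG-F an enzyme of GPI anchor synthesis, Atat an alpha-tubulin acetyltransferase, Mkk4 a MAP kinase kinase and Lamtor3 a Ragulator subunit. The spread between replicates was wide for some, as at Atat-Shc with ranks 103, 72 and 365 and at Lon-PIG-F with ranks 69, 104 and 225.

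The rule's limits gave close neighbours on each side. Just inside 250 bp were the summits at CG2246, 249 bp from its TSS at rank 3912, and at Pax, 247 bp at rank 489. Just outside were alphaTub84B at 254 bp and rank 4229 and Sps1 at 256 bp and rank 1960. The widest pairs kept were RpS7-Anp, 1000 bp apart, and hts-CalpA, 999 bp apart. The nearest beyond the limit were Eno-Rrp40, 1015 bp apart with rank 200, and Ptp4E-CG44774, 1023 bp apart.

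The summits lay mostly between the start sites. Of the 400 members, 294 (73.5%, 68.9 to 77.8) lay between the paired TSSs and 106 (26.5%) downstream of their own TSS, while an average of 38.1% of the bases that could hold a member lie between the TSSs. No member lay beyond its partner TSS, so between the TSSs here equals upstream of the own TSS. Of single summits, 27.7% lay downstream of their TSS, so lying mostly upstream was not particular to members. In replicates 1, 2 and 3 the downstream share was 20.7%, 21.9% and 40.7% of divergent summits. Of single summits it was 21.3%, 27.2% and 35.6%, so the sign of the gap was mixed. In replicates 1, 2 and 3 the share between the TSSs was 79.3%, 77.9% and 59.1% (mean 72.1% ± 11.3, SD, n = 3), and replicate 3 was the lowest. Without replicate 3, of the 285 members found in both other replicates, 79.3% lay between the TSSs. A member was within 250 bp of both start sites in 189 cases (47.25%), and its peak spanned both in 129 (32.25%). The annotation placed 229 summits outside protein-coding genes, 119 in a 5′ UTR, 48 in an intron, 3 in a coding exon and 1 in a 3′ UTR. The median peak width was 424 bp, which is also that of the whole list. It was 274.5 bp over the 100 strongest members and 424 bp over each of the next 3 groups of 100 by rank.

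The place of the summit relative to its own TSS differed from that at single promoters. In the optimal list 43.75% of members (38.8 to 48.8) lay 51 to 150 bp upstream of their TSS, against 26.5% of single summits. In replicates 1, 2 and 3 these shares were 49.8%, 44.4% and 29.7% of divergent summits, against 28.2%, 27.2% and 23.5% of single summits. The divergent share was the higher one in each replicate, and the gap was narrowest in replicate 3. The median position was 94, 69 and 20 bp upstream for divergent summits in replicates 1, 2 and 3, so that of replicate 3 lay closest to the TSS. Since a member is placed by its nearest TSS, positions between the TSSs cannot pass the midpoint, and the part of this in the difference was not tested.

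**Figure D2:**
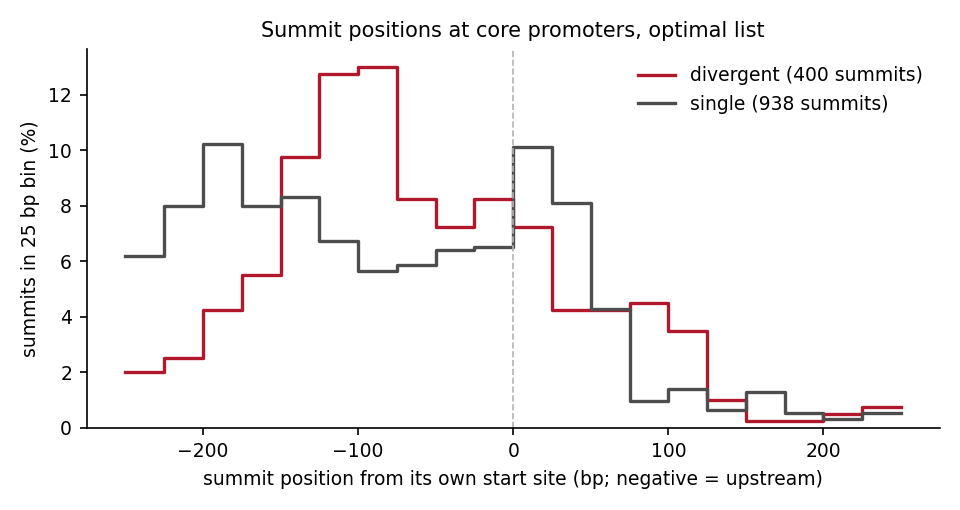
Position of each summit from its own start site (bp, negative upstream) for the divergent and single summits of the optimal list, as the share of each class in 25 bp bins (%). Between 51 and 150 bp upstream lie 43.75% of the divergent summits, against 26.5% of single summits.

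The place of the members within a pair varied with the spacing of its start sites. Among members of pairs 150 to 300 bp apart, 87.6% lay between the TSSs, against 33.1% of the eligible bases, and the median distance from the midpoint was 44 bp. At spacings up to 150 bp only 28.3% lay between the TSSs, against 14.3% of the eligible bases, and the median member lay 40.5 bp downstream of its TSS. In pairs over 600 bp apart no member could lie at the midpoint, since members lie within 250 bp of a TSS, and the median position was 88 bp upstream of the nearer TSS.

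The strongest members were the closest to the midpoint. Among the 57 of the 100 strongest members whose pairs were over 150 and up to 450 bp apart, 26 (45.6%, 32.4 to 59.3) lay within 25 bp of it. The next 3 groups of 100 members by rank had 27.5%, 17.4% and 20.5% there. In replicates 1, 2 and 3 the share was 48.6%, 38.2% and 27.3% for the strongest 25% of divergent summits, against 24.5%, 18.4% and 9.94% for the rest. The order was the same in each replicate, and both shares were lowest in replicate 3. The summits at Atat-Shc, CG7601-CIA30, Tcs5-CHMP2B, CG3552-CG3437 and Lamtor3-fws were 0, 1, 2, 3.5 and 4 bp from the midpoint. The comparison by strength was chosen after the data were seen. Peak width also differed between the 100 strongest members and the others, and its part in the distance from the midpoint was not tested.

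**Figure D3:**
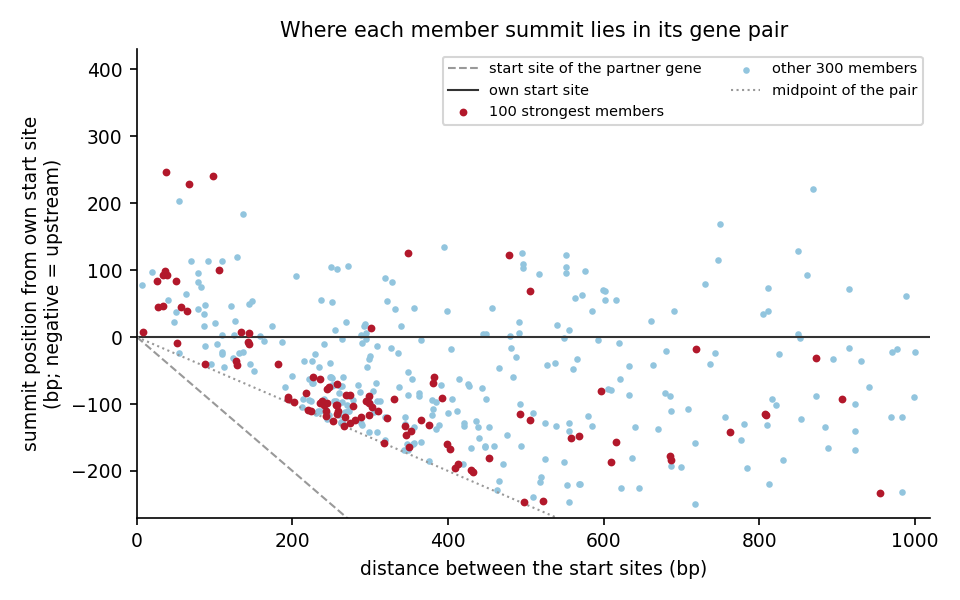
Position of each member from its own start site (bp, negative upstream) against the distance between the start sites of its pair (bp), with the 100 strongest members in red. Between 150 and 450 bp of spacing many strong members lie along the midpoint line, which the rule sets as the lower edge, and 26 of 57 are within 25 bp of it.

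Divergent summits lay on sequence with fewer G and C bases than single summits. Within 250 bp of the summit GC content averaged 37.4%, 38.3% and 40.5% at divergent and 42.4%, 43.1% and 44.9% at single summits in replicates 1, 2 and 3. The groups did not overlap. The means were 38.7% ± 1.57 and 43.5% ± 1.28 (SD, n = 3 each), a difference of -4.71 percentage points with the same sign in 3 of 3 replicates (exact sign-flip permutation test, p = 0.25, adjusted p = 0.333). Without replicate 3 the difference was -4.86. Within 40 bp of the summit the means were 36.0% ± 4.54 for divergent and 42.6% ± 4.05 for single summits (SD, n = 3 each). The narrower window was added after the data were seen. In the optimal list members averaged 35.5% in this window and single summits 43.3%. Summits 250 to 1000 bp from a TSS averaged 35.9% and those farther away 33.8%, so the members lay nearer to these than to the single summits.

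The bases close to the summit were poorest in G and C at the strongest members. Within 40 bp of the summit GC content averaged 29.6% over the 100 strongest members, and 34.5%, 38.7% and 39.1% over the next 3 groups of 100 by rank. In replicates 1, 2 and 3 it was 27.8%, 32.3% and 35.9% at the strongest 25% of divergent summits, against 32.6%, 37.5% and 42.0% at the rest, and lower at the strongest in each. Single summits showed the same order, with 37.4% ± 6.32 at their strongest 25% against 44.3% ± 3.29 at the rest (SD, n = 3 each). In the optimal list, single summits of rank up to 904, where the 100 strongest members end, averaged 35.8%, those 250 to 1000 bp from a TSS 34.0% and those farther away 33.0%. Around the strongest members the dip was narrow: GC content was 28.0% at the summit, 38.2% at a distance of 80 bp and 41.5% at 120 bp. The 100 strongest members also had narrower peaks by median than the others, and the part of peak width in these values was not tested.

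The middle of a divergent pair is poor in G and C with or without a summit. At the midpoint of pairs 150 to 300 bp apart the 81 bases around it held 24.3%, 26.7% and 28.2% G and C where the pair had a summit in replicates 1, 2 and 3, against 30.7%, 29.9% and 29.6% where it had none. The differences were -6.33, -3.23 and -1.43 percentage points, so the occupied pairs were lower in each replicate. The mean difference was -3.66 ± 2.48 (SD, n = 3, exact sign-flip permutation test, p = 0.25, adjusted p = 0.25 over 4 comparisons added after the data were seen). Without replicate 1 it was -2.33.

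**Figure D4:**
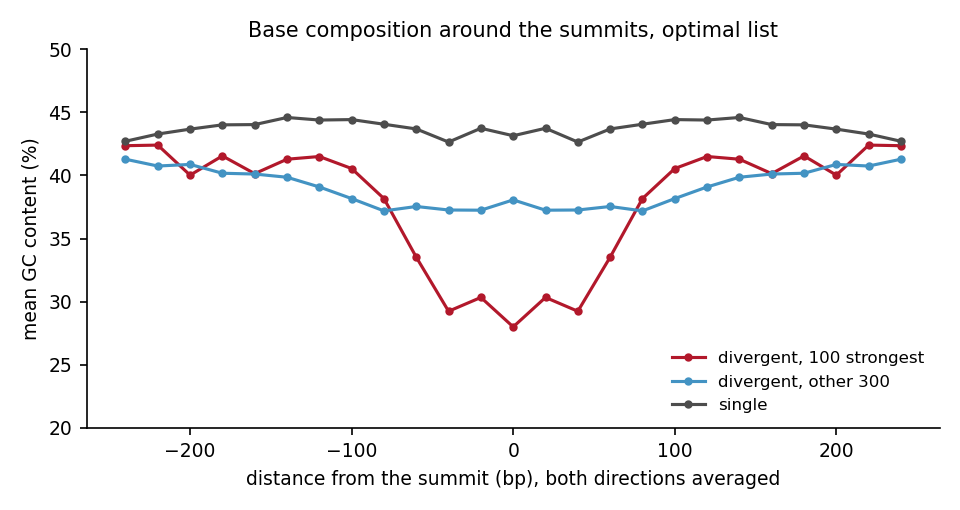
Mean GC content (%) in bins about 20 bp wide against the distance from the summit (bp), averaged over both directions, in the optimal list. The 100 strongest divergent members dip to 28.0% at the summit, while the profiles of the other 300 members and of the single summits vary less.

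The core promoter words DRE and motif 1 were more frequent at divergent than at single summits, and the GAGA word was less frequent. Words were searched on both strands within 250 bp on each side of a summit. DRE, the TATCGATA word bound by the replication-related factor DREF, was present at 18.5%, 18.6% and 14.2% of divergent summits in replicates 1, 2 and 3, against 4.74%, 4.28% and 3.77% of single summits. Motif 1, the GGTCACAC word bound by M1BP, was present at 13.9%, 13.3% and 14.4% of divergent summits, against 4.87%, 4.28% and 5.43% of single summits. The GAGAG word, bound by the GAGA factor that the Trl gene encodes, was present at 39.8%, 37.0% and 44.9% of divergent summits, against 68.8%, 69.9% and 74.9% of single summits. For these 3 words the values of the classes did not overlap.

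The mean differences were 12.8 ± 2.10 percentage points for DRE, 9.02 ± 0.0561 for motif 1 and -30.7 ± 2.01 for GAGAG, each with the same sign in 3 of 3 replicates (SD, n = 3, exact sign-flip permutation test, p = 0.25, adjusted p = 0.333). CGATA, the word of the boundary protein BEAF-32, which also lies within TATCGATA, was present at 68.2% ± 2.10 of divergent and 50.5% ± 0.357 of single summits (SD, n = 3 each). The TATAAA word was present at 63.4% ± 7.36 of divergent and 46.2% ± 4.86 of single summits. As a match on either strand anywhere in the window it is no sign of a TATA box. The E-box word CACGTG was present at 9.20% ± 0.817 of divergent and 6.34% ± 0.491 of single summits, and each of these 3 words had a positive difference in 3 of 3 replicates.

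The other words differed little. GCCAT, the core word of the Polycomb recruiter Pho, was present at 57.0% ± 0.831 of divergent and 57.7% ± 2.04 of single summits. GTGTG, the word of Combgap, which also lies within motif 1 on its other strand, was present at 71.0% ± 5.67 and 70.5% ± 2.53. Each of these differences had mixed signs between replicates (SD, n = 3 each, exact sign-flip permutation test, p = 1.0). CAGGTA, the word of the pioneer factor Zelda, was present at 9.77% ± 0.803 of divergent and 11.4% ± 0.932 of single summits, and this direction turned in the optimal list, at 12% against 10.4%. In windows of the same length around all 19607 TSSs, DRE was present in 8.48%, motif 1 in 7.41%, GAGAG in 46.8%, CGATA in 58.9%, TATAAA in 52.1%, CACGTG in 6.80%, GCCAT in 60.9%, GTGTG in 65.3% and CAGGTA in 11.5%.

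**Figure D5:**
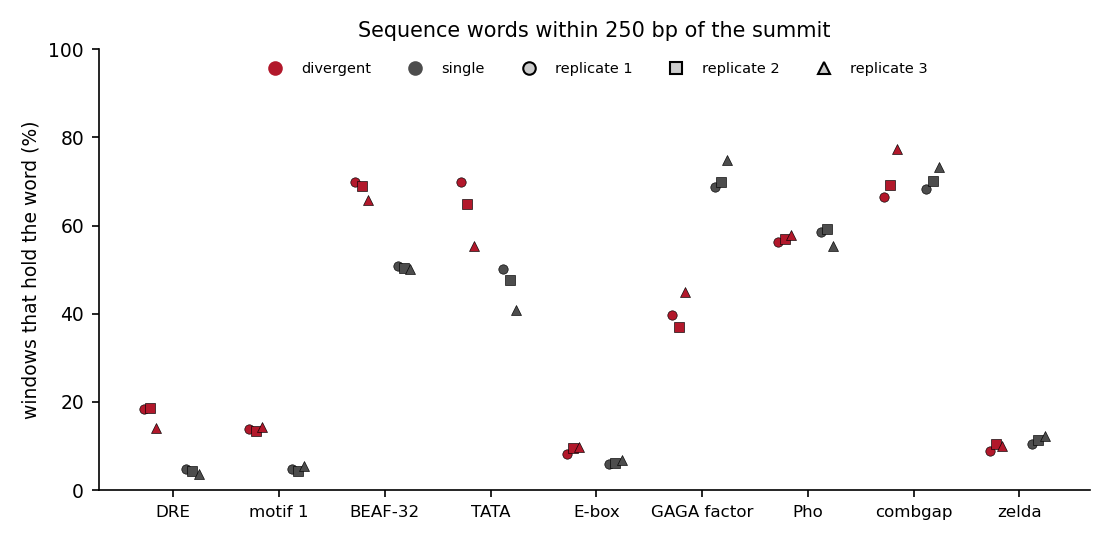
Share of divergent and single summits (%) with each sequence word within 250 bp of the summit, in the strong list of each replicate, 1 symbol per replicate. DRE, motif 1, BEAF-32, TATA and E-box words are higher at divergent summits in each replicate, the GAGA factor word is lower, and the Pho and combgap words overlap.

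The same words separate the 2 kinds of promoter without any summit, so the windows around occupied and unoccupied start sites were compared within each kind, a comparison added after the data were seen. At divergent TSSs DRE was present in 15.3% ± 1.37 of occupied windows and 16.1% ± 0.228 of unoccupied ones (SD, n = 3 each). The differences were -0.0628, 0.280 and -2.65 percentage points in replicates 1, 2 and 3, so the sign was mixed and the mean turned to 0.109 without replicate 3. Motif 1 was present in 12.4% ± 1.57 of occupied and 13.9% ± 0.251 of unoccupied divergent windows, with differences of -2.61, -2.43 and 0.631, and a mean of -2.52 without replicate 3. CGATA was less frequent in occupied than in unoccupied divergent windows in 3 of 3 replicates, at 64.9% ± 0.808 and 69.3% ± 0.142, and so were GCCAT, at 58.1% ± 1.16 and 61.3% ± 0.182, and CAGGTA, at 9.90% ± 0.0518 and 11.7% ± 0.0167 (SD, n = 3 each). Of these 5 words, none was more frequent at occupied divergent TSSs in all 3 replicates, while CACGTG, given below with the other words, was.

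The GAGA word separated occupied from unoccupied windows by more at single than at divergent promoters. At divergent TSSs it was present in 38.8%, 38.1% and 42.6% of windows occupied in replicates 1, 2 and 3, against 38.2%, 38.3% and 37.5% of unoccupied windows. At single TSSs it was present in 64.7%, 68.2% and 72.7% of occupied windows, against 49.8%, 49.4% and 48.1% of unoccupied windows. The difference between occupied and unoccupied windows was 1.84 ± 2.85 percentage points at divergent and 19.5 ± 4.89 at single TSSs (SD, n = 3 each), and 0.214 at divergent TSSs without replicate 3. Divergent minus single, these differences were -14.2, -19.1 and -19.5 percentage points apart in replicates 1, 2 and 3 (exact sign-flip permutation test, p = 0.25, adjusted p = 0.375 over 9 words). GTGTG had differences of -1.29, -0.981 and 7.30 percentage points at divergent TSSs in replicates 1, 2 and 3, so the mean of 1.68 turned to -1.14 without replicate 3, and of 9.31 ± 2.02 at single TSSs. TATAAA had differences of 10.2, 5.99 and -0.381 at divergent TSSs, with a mean of 5.27, of 8.10 without replicate 3 and of 2.80 without replicate 1, and of -6.12 ± 3.96 at single TSSs. CACGTG was present in 10.1% ± 0.875 of occupied and 7.24% ± 0.157 of unoccupied divergent windows, and higher in the occupied ones in 3 of 3 replicates. At single TSSs it was also higher in the occupied windows in 3 of 3 replicates, at 7.11% ± 0.417 and 6.35% ± 0.0629.

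Among divergent summits, DRE and motif 1 were less frequent at the strongest ones. Motif 1 was present at 5 of the 100 strongest members and at 17, 15 and 21 of the next 3 groups of 100 by rank, and DRE at 11 and then at 19, 23 and 18. In the replicate lists motif 1 was present at 8.58% ± 1.81 of the strongest 25% of divergent summits and 15.6% ± 1.18 of the rest, and DRE at 11.6% ± 1.39 and 18.9% ± 3.26 (SD, n = 3 each). Each difference was negative in 3 of 3 replicates (exact sign-flip permutation test, p = 0.25, adjusted p = 0.344 over 11 comparisons added after the data were seen). CACGTG went the other way, with 12.6% ± 2.32 of the strongest 25% and 8.08% ± 0.614 of the rest. GAGAG was present at 40.2% ± 2.94 of the strongest 25% and 40.6% ± 4.56 of the rest, with mixed signs and a mean difference of -0.414 that turned to 1.21 without replicate 3.

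The distance of DRE and motif 1 from the summit was measured in the members. Of the window searched, 20.2% lies within 50 bp of the summit. The nearest DRE was a median of 109.5 bp from the summit over the 71 members that hold one, and 17 of these (23.9%) were within 50 bp. The nearest motif 1 was a median of 123 bp away over 58 members, with 7 (12.1%) within 50 bp. DRE lay between the start sites in 58 of its members (81.7%) and motif 1 in 31 (53.4%). The share of the searched windows that lies between the start sites was not measured, so these shares have no background beside them. Of all members, 73.5% had the summit itself between the start sites. A member with DRE or motif 1 was found in 124 cases (31.0%, 26.5 to 35.8), and 5 members held both words, while 159 members (39.75%) held none of DRE, motif 1 and GAGAG.

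A scan of all 7-letter words, run after the data were seen, found words in the strongest members that the fixed set did not hold. Words present in at least 15 of the 100 strongest members were ordered by the ratio of their share there to their share in the 5463 divergent TSS windows without a summit. The first were AAGGGGG, present in 15 of 100 against 2.07%, and CTACGCC, in 18 of 100 against 2.69%. Since both words were picked for this contrast, the values are a description with no test. Going down the members by groups of 100, AAGGGGG was present in 15, 7, 1 and 2, and CTACGCC in 18, 5, 5 and 1. At least 1 of them was present in 29 of the 100 strongest and 3 of the 100 weakest members, and both together in 4 of the 100 strongest.

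CTACGCC was also counted at summits that the scan did not use. It was present at 15 of the 195 single summits of rank up to 904 (7.69%, 4.37 to 12.4), against 18 of the 743 of lower rank (2.42%, 1.44 to 3.80). At summits 250 to 1000 bp from a TSS it was present in 3.90% of those of rank up to 904 and in 2.13% of the others, and at summits over 1000 bp from a TSS in 3.96% and 2.19%. The values of the weaker summits lay below the 2.69% of divergent TSS windows without a summit. AAGGGGG was present in 6.67% of the stronger and 3.77% of the weaker single summits, and in 10.4% and 9.60% of the summits over 1000 bp from a TSS, so its share there hardly moved with rank. In the strongest members the nearest CTACGCC lay a median of 73 bp from the summit, between 27 and 204 bp. In 15 of these 18 members the summit was between the start sites, which is near the 80 of all 100 strongest members. Among the intervals printed first, Tcs5-CHMP2B and CG3437-CG3552 hold CTACGCC, and CG8372-CG8360 and Mnat9-CG1792 hold AAGGGGG. The pairs with CTACGCC also include Ugalt-eIF2Bbeta, CG5611-Mtl, CG8320-Pex11ab and Pal1-Pdrg1, and those with AAGGGGG also include CG9147-Fbw5, mRpL23-CG9004 and Atat-Shc. No name is given to a factor for either word here.

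Cytosolic ribosomal protein genes were the list with the highest share of occupied genes. Gene lists were counted over genes that have a divergent TSS, of which 592 of 5052 (11.7%) had an optimal summit within 250 bp of it. Of 54 cytosolic ribosomal protein genes with a divergent TSS, 32 (59.3%, 45.0 to 72.4) had one, and the share was 51.9%, 53.7% and 77.8% in replicates 1, 2 and 3. Replicate 3 was the highest and all 3 values were above the 14.2%, 13.3% and 14.4% of all such genes. Of 33 ribosomal protein genes with single TSSs only, 14 (42.4%, 25.5 to 60.8) had a summit, against 8.69% of all 8893 genes with single TSSs only, so an occupied ribosomal protein promoter was not confined to the divergent kind. At divergent pairs the strongest were RpS27, paired with the nucleoporin gene Nup37, with ranks 438, 165 and 418 in replicates 1, 2 and 3, and RpL41, paired with NaCP60E, with ranks 988, 831 and 383. RpL34b-CG8132 had ranks 771, 450 and 1325, and RpL14, paired with the negative elongation factor gene Nelf-E, had 920, 1042 and 1038.

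The members at cytosolic ribosomal protein genes were set beside the other members. A ribosomal protein gene was in the nearest pair of 36 members, and was nearest the summit in 29 of these. Their median position was 23 bp upstream of the TSS, against 87 bp for the 364 other members. DRE was present at 11 of 36 (30.6%), against 16.5% of other members, and motif 1 at 8 of 36 (22.2%), against 13.7%. Their median rank was 2779, 2427 and 1751.5 in replicates 1, 2 and 3, against 2021, 2310 and 2634 for other members. The ribosomal protein members thus stood highest in replicate 3, where the other members stood lowest. This split was made after the data were seen and carries no test.

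Other lists of housekeeping genes had shares between 7.69% and 17.4%, beside the background of 11.7%, and heat shock protein genes had 28.6% on 7 genes. A summit was present at 8 of 58 mitochondrial ribosomal protein genes with a divergent TSS (13.8%). The share of these genes was 22.4%, 20.7% and 17.2% in replicates 1, 2 and 3, above that of all such genes in each. An optimal summit was present at 6 of 44 respiratory chain genes (13.6%), 2 of 26 proteasome genes (7.69%), 3 of 26 translation factor genes (11.5%) and 4 of 23 transfer RNA synthetase genes (17.4%). It was present at 3 of 19 Mediator genes (15.8%), 3 of 25 genes of the general RNA polymerase II machinery (12%), 1 of 10 DNA replication genes and 2 of 7 heat shock protein genes (28.6%, 3.67 to 71.0). The 4 strongest of the mitochondrial ribosome were mRpL41, mRpS10, mRpL23 and mRpL24, with optimal ranks of 16, 19, 68 and 443. ND-ASHI, of respiratory complex I, had rank 255 and eIF4EHP, a cap-binding repressor of translation, rank 87. SerRS had rank 645, MED30 rank 539, Polr2B rank 830, the proteasome gene Rpn5 rank 1261, the replication helicase gene Mcm2 rank 1841 and the chaperone genes Hsc70-5 and Hsp83 ranks 536 and 602. Of 1757 genes known by a CG number alone, 184 (10.5%) had a summit.

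Among lists of regulated and of Polycomb-related genes, 4 held no gene with an optimal summit and 2 were above the background of 11.7% on small counts. Of 83 developmental transcription factor genes only 3 had a divergent TSS, and 0 of these had a summit, which allows a share of up to 70.8%. None of 37 chemoreceptor genes (up to 9.49%), 4 cuticle protein genes (up to 60.2%) or 11 Polycomb group genes (up to 28.5%) with a divergent TSS had an optimal summit. Except for the chemoreceptors, these limits lie above the background. In replicates 1 and 2 a summit was within 250 bp of 1 Polycomb group gene each (9.09%), and of none in replicate 3. The trithorax group had 2 of 11 (18.2%, 2.28 to 51.8), brm and mor, which encode the ATPase and a core subunit of the Brahma remodelling complex. The brm member had optimal rank 237 and rank 124 in replicate 1, and its summit lay inside no peak of replicates 2 and 3. By this measure its high rank was seen in replicate 1 alone. Peaks of the other replicates that lay near the summit without covering it were not counted. Of 16 genes for insulator proteins and binders of Polycomb response elements, 3 had a summit (18.75%, 4.05 to 45.6), Chro at rank 10, Cp190 at rank 292 and pzg at rank 3339.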

How the data were processed

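Chromatin immunoprecipitation signal for E(z)-GFP was measured in 3 biological replicates of whole prepupae. Per the submitters' text deposited with the samples, each replicate list came from 1 alignment together with another file whose kind is unstated; replicate and pooled lists were then combined into the optimal list. The authors deposited a signal value, a -log10 q-value and a summit offset for each peak. The signal has no stated scaling, so it served for ranking inside a list and nothing else. Over the members the -log10 q-value, as deposited, was 2.87 to 3.97 and had no further use. The aligner and peak caller are not given in the labels or files used. A possible control experiment named in the labels and the lists on the older assembly dm3 were not used here. Depth per sample is unknown.

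The genome build was dm6, per the labels. TSSs were all distinct transcript starts of protein-coding genes on 6 arms in Ensembl release 115 (BDGP6.54), and sequence came from the RefSeq copy of genome release 6. Summits were placed 1-based from the deposited start and summit offset. A TSS was divergent when the nearest opposite-strand TSS of another protein-coding gene lay 1 to 1000 bp upstream. Python 3.11.15, numpy 2.4.6, pandas 2.3.3, scipy 1.17.1, statsmodels 0.14.6 and matplotlib 3.10.9 were used. Each replicate gave 1 value per class from a strong list, its highest-ranked peaks up to the length of the optimal list, and differences were tested with an exact two-sided sign-flip permutation test over the 3 replicates, with Benjamini-Hochberg adjustment within each family of comparisons. Intervals are exact Clopper-Pearson intervals. The functions were tested on simulated data with planted start sites, summits and words.

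The members, the 17 gene lists and the 9 words were chosen with earlier results of these data known. Named genes were those of the 25 highest-ranked members found in all 3 replicates, up to 4 genes per list, the members nearest each limit and up to 4 pairs with a summit nearest each gene. Intervals on chromosome arm 2R were not printed.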

Additional observations from a re-analysis of the deposited data

How the results depend on the processing

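Alternatives were other summit and spacing limits, 1 TSS per gene, partners of any gene type, other numbers of peaks, a window of 100 bp, the stronger 50% of the list and each replicate left out. Of 188 alternative values, 165 kept their direction, or for counts and shares their size, and 35 of these were over 1.5 times larger or smaller than the reported value. The rank difference was -10.8 with all 30000 peaks, and with 100 bp each side of the summit the DRE, motif 1 and E-box differences were 5.41, 2.68 and 0.0965. Without each replicate in turn, the difference in TSS occupancy was 4.88 to 6.82 percentage points and the members found in both others were 254 to 285. The share found in both others was 63.5% to 71.25%, and the share between the start sites 74.8% to 79.3%. The members numbered 229 with summits within 100 bp of the TSS and 230 in the stronger 50%, of which 87.4% were found in all 3 replicates, and 79.0% of members were found with 2 times as many peaks. TSS occupancy turned to -1.60 percentage points in the pooled relaxed list. The Pho word difference turned to 1.35 with summits within 100 bp, 0.380 with start sites within 500 bp and 0.127 with partners of any gene type, and was -2.26 to 0.195 without each replicate. The Combgap word difference turned to -0.0521, -2.14 and -0.585 under the same 3 settings, -1.94 with 1000 peaks, -0.825 with 2 times as many peaks, -1.78 with 100 bp each side and -0.535 in the optimal list, and was -1.28 to 1.65 without each replicate. The Zelda word difference turned to 1.55 in the optimal list. The cause of these turns was not tested. The classes were compared within each replicate, so the tests are already paired by replicate. The depth of each replicate is unknown, and 3 replicates cannot give a p below 0.25.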

Other observations

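Of the 23 gene pairs with 2 members, 17 had 1 nearest each gene and 6 had both nearest the same gene, and the median distance between the summits was 320 bp. Where the genes have several start sites the summits can lie far apart, as at Vti1b-Vha100-2, with summits of rank 150 and 2817 that are 1928 bp apart, and at Elp6-Dic1, with ranks 201 and 2034. Other summits of a pair lay close together, as at RpL34b-CG8132, with ranks 728 and 3043, where they were 205 bp apart in overlapping peaks. Both of its summits had rank 771 in replicate 1 and rank 1325 in replicate 3. Whether such close summits are separate sites was not tested. The weaker summit of Vti1b-Vha100-2 was in no peak of replicate 1, where the stronger one ranked 147.

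Occupied divergent TSSs were spread over the arms. A summit was present at 8.66% of divergent TSSs on X, 12.4% on 2L, 9.46% on 2R, 13.9% on 3L and 13.3% on 3R, and at 0 of 28 on chromosome 4, which allows a share of up to 12.3%. Among single summits, 55 (5.86%) had a head-to-head partner of another gene type, such as a non-coding RNA gene, and were not counted as divergent.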
